A study of Homo sapiens with 24 samples.

Results

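NEAT1 and MALAT1 are neighbouring long noncoding RNAs (lncRNAs) of the human cell nucleus, and they are described here together with 4 genes for paraspeckle proteins, SFPQ, NONO, PSPC1 and RBM14. The 6 genes were taken by symbol from the gene count tables of HepG2 cells, a human hepatocellular carcinoma line, out of 26475 symbols in all, and all 6 passed the filter on low counts in the 24 libraries. The 24 libraries form 8 groups of 3: cells given the solvent DMSO, the inhibitor ABBV-075 (50 nM), the inhibitor ABBV-744 (50 nM or 500 nM), interferon gamma (IFNγ, written IFNg in the plots), and IFNγ with each of these 3 inhibitor treatments. ABBV-075 and ABBV-744 are inhibitors of the BET proteins, readers of acetylated chromatin. ABBV-075 binds both bromodomains of these proteins, and ABBV-744 binds mainly the second. The dose of IFNγ and the duration of the ABBV-744 and IFNγ treatments are not given in the sources used here. HepG2 is 1 cell line, and the labels do not say whether the 3 libraries of a group came from separate cultures, so p-values measure only the spread between these libraries.

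NEAT1 is the RNA scaffold of paraspeckles, nuclear bodies that hold back certain proteins and RNAs and that grow when NEAT1 transcription rises. The gene gives a short polyadenylated transcript and a long one that runs to the end of the gene, and only the long one builds paraspeckles. SFPQ, NONO and PSPC1 are the DBHS proteins, which coat the long transcript, and RBM14 helps to assemble the body. MALAT1 is an abundant RNA of nuclear speckles, bodies rich in splicing factors. The long NEAT1 transcript and MALAT1 are not polyadenylated. RNase P cuts their 3′ end just before a small RNA folded like a tRNA, and the new end is protected by a triple helix of U-rich stretches and an A-rich one.

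The 3′ ends of both lncRNAs are shown because they are the part these RNAs share. Ribosomal RNA was depleted before the libraries were made, with no selection of poly(A) tails named in the study's methods, so RNAs that end this way can be in the libraries. The sequences were read from hg38, plus strand, chromosome 11, at 65445475 to 65445600 for NEAT1 and 65506056 to 65506176 for MALAT1. Capitals mark a U-rich stretch and the A-rich stretch that pairs with it and ends at the RNase P cut, and the lower case letters after the A-rich stretch begin the tRNA-like RNA.
NEAT1: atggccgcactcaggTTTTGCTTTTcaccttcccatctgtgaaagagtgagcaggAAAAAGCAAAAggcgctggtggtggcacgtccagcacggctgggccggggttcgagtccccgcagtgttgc
MALAT1: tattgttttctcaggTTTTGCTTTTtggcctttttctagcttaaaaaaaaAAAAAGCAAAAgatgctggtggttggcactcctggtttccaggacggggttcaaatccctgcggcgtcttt
The same 10 and 11 letters stood in both genes, 51 bases from first to last in NEAT1 and 46 in MALAT1. This pair of stretches, at most 60 bases apart, was found 1 time in each gene and 4 times on chromosome 11 over both strands. In NEAT1 the A-rich stretch ends on the last annotated base of the gene, and in MALAT1 it ends 1957 bases before the last annotated base.

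In GENCODE on hg38, NEAT1 (ENSG00000245532.11) lies at chr11:65422774-65445540 and MALAT1 (ENSG00000251562.11) at chr11:65497640-65508073, both on the plus strand and 52.1 kb apart. RBM14 (ENSG00000239306.5) is on the same strand at chr11:66616626-66629934, and its start is 1193.9 kb from that of NEAT1. SFPQ (ENSG00000116560.12) lies at chr1:35176378-35193446 on the minus strand, NONO (ENSG00000147140.17) at chrX:71254814-71301522 on the plus strand and PSPC1 (ENSG00000121390.19) at chr13:19674752-19783019 on the minus strand. The count tables hold 1 value for NEAT1, so its short and long transcripts cannot be told apart. GENCODE lists 1 gene named as an SFPQ pseudogene, 1 named as a NONO pseudogene and 2 named as PSPC1 pseudogenes, and reads shared with such copies would not have been counted, because reads with several positions were left out.

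Between 2978982 and 4304103 reads per library were counted on genes, 12% to 16.8% of all reads. Reads with several positions took 56% to 69.4% and reads outside genes 14.8% to 25.3%. HEXIM1, a transcript that rises when BET proteins are inhibited, averaged 53.8 CPM (gene counts scaled to a library of 1e6 counts) in DMSO, 145 with ABBV-075, 64.8 with ABBV-744 at 50 nM and 89.4 at 500 nM. IRF1, an interferon-induced factor, averaged 12.0 CPM in DMSO and 228 with IFNγ. ALB, the liver gene for albumin, averaged 2272 to 3194 CPM over the groups, and the leukocyte marker PTPRC had 0 counts in all 24 libraries. The 4 leukocyte markers summed to 27 to 104 counts per library, from CD68 (25 to 86 counts) and CD14 (1 to 22), with no other member detected, the 3 fibroblast markers to 4 to 33 and the 3 endothelial markers to 0 to 9.

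NEAT1 was higher with each inhibitor treatment, alone or with IFNγ, and its level fell into 4 steps. In DMSO its level was 149, 172 and 142 CPM, and with IFNγ alone 163, 166 and 170 CPM. With ABBV-744 at 50 nM it was 271, 248 and 230 CPM, and at 500 nM 279, 305 and 329 CPM. With ABBV-075 at 50 nM it was 626, 880 and 709 CPM. Both ABBV-744 groups thus lay above all libraries without an inhibitor and below all libraries with ABBV-075. The IFNγ libraries held 735, 570 and 609 CPM with ABBV-075, 253, 251 and 228 CPM with ABBV-744 at 50 nM and 276, 300 and 306 CPM at 500 nM. The order of the means was ABBV-075, IFNγ with ABBV-075, ABBV-744 at 500 nM, IFNγ with ABBV-744 at 500 nM, ABBV-744 at 50 nM, IFNγ with ABBV-744 at 50 nM, IFNγ and DMSO. Neighbours in this order overlapped only where they differed by IFNγ alone, so that the libraries of one inhibitor treatment lay apart from those of the next. The gap between the ABBV-744 doses was small, 271 CPM at most at 50 nM and 276 CPM at least at 500 nM. Tested directly, the difference between these doses was not called without IFNγ. With IFNγ it was called, but not with library size alone or in the fit of all 24 libraries. It was also not called without replicate 1, 2 or 3 at 50 nM or replicate 2 or 3 at 500 nM.

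**Figure D1:**
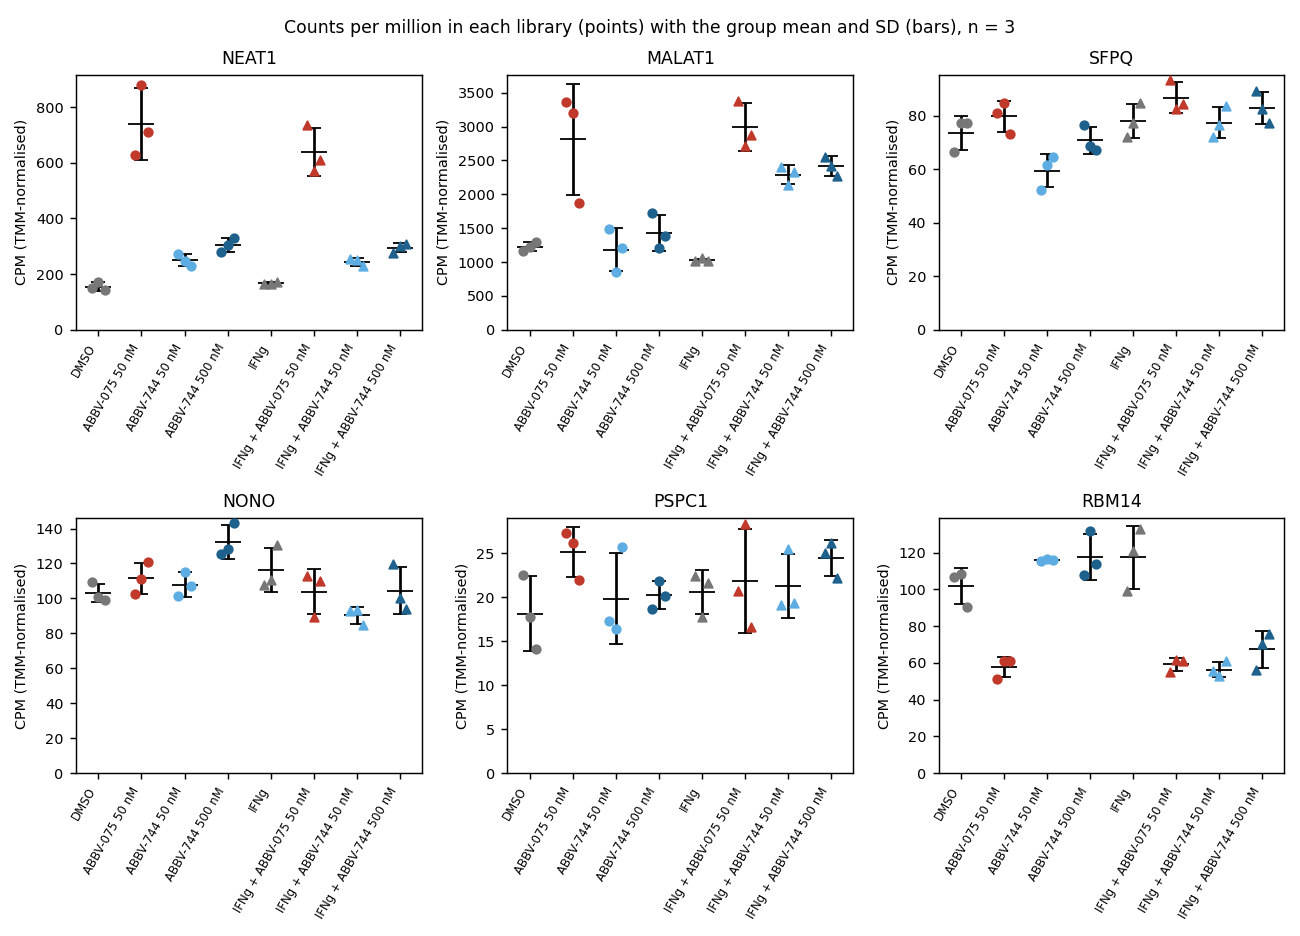
TMM-normalised CPM (y axis, from 0) of each of the 6 genes in the 8 treatment groups (x axis); points are libraries (circles without IFNγ, triangles with it), and bars are the group mean and SD, n = 3. NEAT1 is highest in both ABBV-075 groups, at 570 to 880 CPM against 142 to 172 CPM in DMSO, and MALAT1 and RBM14 with ABBV-744 sit at different levels with and without IFNγ.

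With ABBV-075 alone NEAT1 rose by a log2 fold change of 2.23 ± 0.14 (SE, n = 3 against 3, edgeR quasi-likelihood test, adjusted p = 7.87e-07), 4.70-fold. It ranked 18 from the top of 11244 genes tested and 2 among 314 lncRNAs. Of all genes tested in this comparison, 19.8% were called higher and 19.6% lower at an adjusted p of at most 0.05, which is the meaning of a call in what follows. With ABBV-744 the rise of NEAT1 was smaller, 0.70 ± 0.10 at 50 nM (edgeR adjusted p = 3.27e-05) and 0.98 ± 0.10 at 500 nM (edgeR adjusted p = 1.06e-08). At these doses 8.81% and 7.48% of genes were called higher, and 10.1% and 7.8% lower. The 2102 genes called at 50 nM became 708, 900 and 1156 without DMSO replicate 2, DMSO replicate 3 or ABBV-744 replicate 3, and the 1700 at 500 nM became 793, 874 and 1003 without the like 3 libraries. IFNγ alone left NEAT1 at a log2 fold change of 0.10 ± 0.09 (edgeR adjusted p = 0.638), where 2.76% of genes were called higher and 0.695% lower.

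Beside IFNγ the inhibitors gave NEAT1 a like order. Against IFNγ alone its log2 fold change was 1.93 ± 0.09 with ABBV-075, 0.57 ± 0.08 with ABBV-744 at 50 nM and 0.81 ± 0.09 at 500 nM, with edgeR adjusted p of 1.91e-19, 3.71e-07 and 1.03e-08. Many genes moved in these comparisons: 28.2% were called higher and 28.4% lower with ABBV-075, 27.4% and 24.3% with ABBV-744 at 50 nM, and 22.9% and 22.8% at 500 nM. NEAT1 ranked 74 from the top of 11187 genes with ABBV-075, but 2278 of 11150 with ABBV-744 at 50 nM. NEAT1 reached a log2 fold change of 1.5, the size the study asked of a changed gene, only with ABBV-075, alone and with IFNγ. The difference between an inhibitor's effects with and without IFNγ was tested as an interaction over 4 groups, on the log2 scale, as the effect with IFNγ minus the effect without it. NEAT1 had no call in these tests. Its interaction was -0.32 ± 0.17 for ABBV-075, -0.16 ± 0.13 for ABBV-744 at 50 nM and -0.16 ± 0.13 at 500 nM, with edgeR adjusted p of 0.760, 0.285 and 0.358. At 50 nM the sign of this interaction turned with normalization to library size alone (0.03), and with a correction for GC content it was called lower (-0.39).

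**Figure D2:**
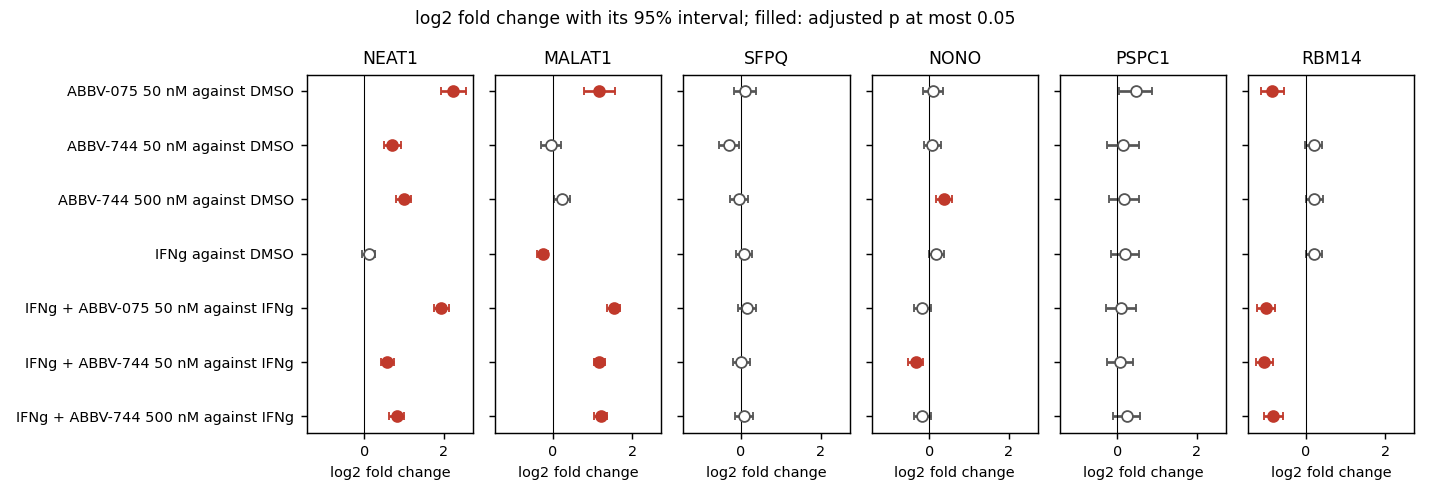
Log2 fold change (x axis, 1 panel for each gene) with its 95% interval in the 7 treatment comparisons (y axis), each over 3 libraries against 3; filled red points have an edgeR adjusted p of at most 0.05. NEAT1 lies right of 0 in the 6 comparisons with an inhibitor, while MALAT1 and RBM14 were called with ABBV-744 only in the comparisons with IFNγ.

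MALAT1 was the most abundant member per length. In DMSO its mean was 117 CPM per kb of annotated exon, against 6.78 for NEAT1 and 3.76 to 15.7 for the 4 protein genes, and NEAT1 per kb is understated where reads come from its short transcript. MALAT1 was at 1165, 1218 and 1291 CPM in DMSO and at 1012, 1055 and 1021 CPM with IFNγ. With ABBV-075 it was at 3367, 3195 and 1868 CPM, and replicate 3 lay apart from the other two. With ABBV-744 alone it was at 1487, 851.5 and 1207 CPM at 50 nM and at 1725, 1200 and 1380 CPM at 500 nM, overlapping DMSO at both doses. With IFNγ and ABBV-075 it was at 3386, 2707 and 2870 CPM. With IFNγ and ABBV-744 it was at 2401, 2141 and 2333 CPM at 50 nM and at 2556, 2418 and 2267 CPM at 500 nM. All 6 of these libraries lay above the 6 libraries of ABBV-744 without IFNγ, and the highest value without an inhibitor was 1291 CPM.

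MALAT1 rose with ABBV-075 by a log2 fold change of 1.17 ± 0.18 (edgeR adjusted p = 4.31e-04), and by 1.03 to 1.40 when each library was left out. With ABBV-744 alone its log2 fold change was -0.04 ± 0.12 at 50 nM and 0.23 ± 0.10 at 500 nM, neither called (edgeR adjusted p = 0.834 and 0.103). A GC correction turned the sign at 50 nM (0.14) and gave a call at 500 nM (0.34), as did leaving out replicate 2 of ABBV-744 at 500 nM (0.34). With IFNγ alone MALAT1 was called lower, by -0.25 ± 0.06 (edgeR adjusted p = 0.0123). That call was lost in the fit of all 24 libraries (edgeR adjusted p = 0.692) and without DMSO replicate 2, DMSO replicate 3 or IFNγ replicate 3 (edgeR adjusted p = 0.0557, 0.155 and 0.0614).

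Beside IFNγ, MALAT1 rose with all 3 inhibitor treatments. Its log2 fold change against IFNγ alone was 1.53 ± 0.08 with ABBV-075, 1.18 ± 0.07 with ABBV-744 at 50 nM and 1.21 ± 0.08 at 500 nM, with edgeR adjusted p of 2.36e-18, 4.85e-15 and 3.47e-13. With ABBV-744 it ranked 6 of 301 lncRNAs at 50 nM and 4 of 296 at 500 nM. Among all genes tested it ranked 604 of 11150 and 360 of 11091 from the top. The effect of ABBV-744 on MALAT1 differed between cells with and without IFNγ by 1.18 ± 0.16 at 50 nM and by 1.00 ± 0.13 at 500 nM (edgeR adjusted p = 4.42e-07 and 5.44e-07). In these interactions MALAT1 ranked 1276 of 11451 genes and 1134 of 11428 from the top. For ABBV-075 the difference was 0.34 ± 0.21 (edgeR adjusted p = 0.772). The background of these tests was uneven: 51.6% of genes were called in the interaction with ABBV-744 at 50 nM, 33.5% at 500 nM and 0.0347%, 4 genes, with ABBV-075, where 775 genes had an unadjusted p under 0.05 and DESeq2 called 12. The count of 4 rose to 200 without ABBV-075 replicate 1, to 13 without ABBV-075 replicate 3 and to 7 without replicate 1 of IFNγ with ABBV-075. The labels name no batch of preparation, so libraries of 1 treatment prepared together could not be told apart from the treatment. With a correction for GC content the MALAT1 interactions were 0.69 and 0.65, still called, while the number of genes called fell from 5905 to 2358 at 50 nM and from 3827 to 1920 at 500 nM. The longest annotated transcript of MALAT1 holds 42.0% G and C, that of NEAT1 44.1% and that of RBM14 52.9%.

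The share of reads outside genes had the same order as MALAT1 in some groups. This held for the 3 libraries of the ABBV-075, ABBV-744 50 nM and ABBV-744 500 nM groups, 3 of 8 groups. NEAT1 and RBM14 each had the order of this share in 0 of 8. Only few orders of 3 libraries are possible, and the count was made for these 3 genes alone, so it has no background over all genes. The ABBV-075 library with 1868 CPM had 16.8% of its reads outside genes, and the other two had 25.3% and 19.7%. The share was 14.8% to 17.3% in ABBV-744 at 50 nM and 22.8% to 24.1% in IFNγ with that dose, but 15.6% to 19.1% and 18.1% to 18.9% at 500 nM. Its part in the result was not tested.

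**Figure D3:**
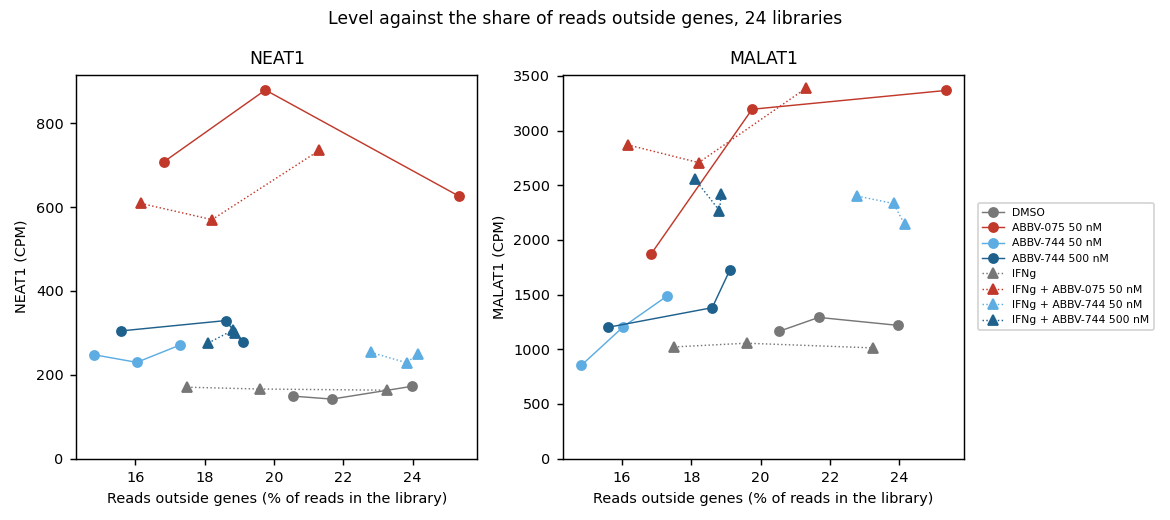
NEAT1 (left) and MALAT1 (right) in CPM (y axis, from 0) against the percent of a library's reads that fell outside genes (x axis) for the 24 libraries; colours are treatments, and lines join the 3 libraries of a group. MALAT1 with ABBV-075 runs from 1868 CPM at 16.8% to 3367 CPM at 25.3%, whereas MALAT1 with ABBV-744 at 500 nM and IFNγ lies at 2267 to 2556 CPM at a share near that of ABBV-744 at 500 nM alone.

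RBM14, which bridges paraspeckle proteins through its prion-like domain and also acts in transcription and DNA repair, moved the other way. It was at 107, 108 and 90.6 CPM in DMSO, at 116, 116 and 116 CPM with ABBV-744 at 50 nM, at 108, 132 and 114 CPM at 500 nM and at 99.0, 121 and 133 CPM with IFNγ. In the 4 remaining groups it was lower, and no library of these reached 90.6 CPM. It was at 51.2, 60.9 and 61.0 CPM with ABBV-075, at 55.2, 61.7 and 60.9 CPM with IFNγ and ABBV-075, at 55.7, 52.6 and 60.8 CPM with IFNγ and ABBV-744 at 50 nM, and at 56.3, 70.0 and 76.0 CPM with IFNγ and ABBV-744 at 500 nM.

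The log2 fold change of RBM14 was -0.84 ± 0.13 with ABBV-075 against DMSO (edgeR adjusted p = 5.41e-04). Against IFNγ alone it was -0.997 ± 0.12 with ABBV-075, -1.04 ± 0.11 with ABBV-744 at 50 nM and -0.81 ± 0.12 at 500 nM, with edgeR adjusted p of 2.97e-09, 1.01e-09 and 1.95e-06. With ABBV-744 alone RBM14 was not called, at 0.20 ± 0.10 and 0.21 ± 0.11 (edgeR adjusted p = 0.169 and 0.175). Its interaction of IFNγ with ABBV-744 was -1.27 ± 0.15 at 50 nM and -1.01 ± 0.17 at 500 nM, with edgeR adjusted p of 1.09e-07 and 2.29e-05. With the GC correction these were -0.82 and -0.65, and the change with IFNγ and ABBV-744 at 500 nM was -0.53, all still called. RBM14 had 0 or 1 reads on the opposite strand in every library, and the readthrough gene that joins it to RBM4 is a symbol of its own, whose shared reads would be left out as ambiguous.

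The DBHS genes moved little. SFPQ, whose protein is needed to keep NEAT1 stable, lay between 52.5 and 93.5 CPM over all 24 libraries and was not called against DMSO or against IFNγ in any of the 7 treatment comparisons. Its log2 fold changes there ran from -0.30 ± 0.12 with ABBV-744 at 50 nM to 0.15 ± 0.11 with IFNγ and ABBV-075. A GC correction gave calls for SFPQ with ABBV-744 at 50 nM (-0.36) and, beside IFNγ, with ABBV-075 (0.39) and ABBV-744 at 500 nM (0.29). With ABBV-744 at 50 nM it was also called with library size alone (-0.41) and without replicate 2 of that group (-0.33). The SFPQ interactions of IFNγ with ABBV-744 were 0.28 ± 0.16 at 50 nM and 0.15 ± 0.15 at 500 nM. Neither was called (edgeR adjusted p = 0.131 and 0.481). Both were called with the GC correction (0.54 and 0.39), and that at 50 nM also with library size alone (0.47). PSPC1, the least abundant of the 3, lay between 14.1 and 28.3 CPM, on 52 to 113 counts, and was not called in any of the 7. Its largest value was 0.46 ± 0.19 with ABBV-075 (edgeR adjusted p = 0.0776), with a 95% interval of 0.04 to 0.88, and the GC correction (0.48), the fit of all 24 libraries (0.48) and leaving out DMSO replicate 1 (0.64) or ABBV-075 replicate 3 (0.54) gave a call.

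NONO, the partner of SFPQ in heterodimers, was called in opposite directions with ABBV-744. It was at 109, 101 and 99.2 CPM in DMSO and at 125, 128.5 and 143 CPM with ABBV-744 at 500 nM, a log2 fold change of 0.37 ± 0.10 (edgeR adjusted p = 0.0101). It was at 107.5, 110 and 131 CPM with IFNγ and at 92.6, 93.5 and 84.8 CPM with IFNγ and ABBV-744 at 50 nM, a log2 fold change of -0.34 ± 0.10 (edgeR adjusted p = 0.00338). The groups did not overlap in either comparison. The first call was lost without DMSO replicate 2 (0.36), DMSO replicate 3 (0.34) or replicate 3 of ABBV-744 at 500 nM (0.31). Its interaction was -0.45 ± 0.14 at 50 nM and -0.52 ± 0.15 at 500 nM (edgeR adjusted p = 0.00735 and 0.00727), and that at 50 nM was not called with library size alone (-0.26) or with the GC correction (-0.32).

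ABBV-075 and ABBV-744 were compared directly at 50 nM, the dose they share, over the 6 genes without and with IFNγ. Without IFNγ, NEAT1 was higher with ABBV-075 by a log2 difference of 1.55 ± 0.14 (edgeR adjusted p = 1.51e-04), MALAT1 by 1.24 ± 0.24 (edgeR adjusted p = 0.00364) and SFPQ by 0.41 ± 0.14 (edgeR adjusted p = 0.0369), while RBM14 differed by -1.02 ± 0.13 (edgeR adjusted p = 5.97e-04). Between these groups 40.8% of all genes, 4481, were called, and 2651 and 2696 without replicate 2 of ABBV-075 or of ABBV-744. The SFPQ call was lost when 5 of the 6 libraries were left out in turn, ABBV-075 replicates 1 and 2 and ABBV-744 replicates 1, 2 and 3, at log2 differences of 0.34 to 0.48. NONO and PSPC1 were not called, with log2 differences of 0.03 (95% interval -0.24 to 0.31) and 0.34 (95% interval -0.13 to 0.80).

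With IFNγ in both groups, NEAT1 was again higher with ABBV-075 than with ABBV-744 at 50 nM, by a log2 difference of 1.43 ± 0.09 (edgeR adjusted p = 6.67e-18). MALAT1 was higher by 0.43 ± 0.08 (edgeR adjusted p = 6.63e-05), although the call was lost in the fit of all 24 libraries (0.38). RBM14 differed by 0.12 with a 95% interval of -0.10 to 0.34 and was not called, and SFPQ, NONO and PSPC1 were not called either, at 0.22 (95% interval 0.01 to 0.42), 0.25 (0.05 to 0.45) and 0.10 (-0.26 to 0.45). NONO, with an edgeR adjusted p of 0.0516, was called with RLE normalization (0.0488), with both strands together (0.0494), with the GC correction (0.00633) and without replicate 2 of IFNγ with ABBV-075 (0.0186), and SFPQ was called with the GC correction (0.0408). Of all genes 33.7% were called between these groups. NEAT1 was thus 2.94-fold higher with ABBV-075 than with ABBV-744 without IFNγ and 2.7-fold higher with it, and MALAT1 2.36-fold and 1.35-fold.

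The doses of ABBV-744, 50 and 500 nM, were also compared. Without IFNγ none of the 6 genes was called between them, and 3 of 10967 genes, 0.0274%, were called at all, with 633 at an unadjusted p under 0.05 and 5 called by DESeq2. The 3 became 10, 0 and 5 without replicate 2 or 3 of ABBV-744 at 50 nM or replicate 2 at 500 nM. NEAT1 was 0.28 ± 0.11 higher at 500 nM on the log2 scale, with libraries that did not overlap (edgeR adjusted p = 0.775). With IFNγ 1.7% of genes, 187, were called, and without each of the 6 libraries in turn 64 to 473. There NEAT1 was 0.30 ± 0.08 higher at 500 nM (edgeR adjusted p = 0.0430). This call was lost with library size alone (0.21) and in the fit of all 24 libraries (0.27). It was also lost without replicate 1, 2 or 3 at 50 nM or replicate 2 or 3 at 500 nM, at log2 differences of 0.25 to 0.32. MALAT1 differed between the doses by 0.28 ± 0.15 without IFNγ and 0.10 ± 0.08 with it, and was not called.

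Other paraspeckle proteins were taken as a list of 18 genes, all of them expressed. With ABBV-075 alone 2 were called higher and 6 lower, where 19.8% of all genes were called higher and 19.6% lower. The median of their log2 fold changes was -0.09, and that of all genes tested was 0.03. Among those that fell were the genes of the RNA-binding proteins HNRNPA1 (-0.53), a regulator of splicing, DAZAP1 (-0.79), HNRNPUL1 (-0.51), RBM3 (-0.53) and RBMX (-0.48), and the RNA-binding protein gene TAF15 (0.65) and the cold-inducible protein CIRBP (0.50) rose. With ABBV-744 alone 1 rose and 6 fell at 50 nM, and 2 rose and 5 fell at 500 nM, with medians of -0.16 and -0.13. Of all genes 8.81% rose and 10.1% fell at 50 nM, and 7.48% and 7.8% at 500 nM. With IFNγ alone none of the 18 was called, where 1586 of all genes had an unadjusted p under 0.05 and 388 were called by edgeR and 279 by DESeq2.

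Beside IFNγ, 5 of the 18 rose and 7 fell with ABBV-075, 4 rose and 6 fell with ABBV-744 at 50 nM, and 2 rose and 7 fell at 500 nM, with medians of -0.27, -0.17 and -0.19. The shares of all genes that rose were 28.2%, 27.4% and 22.9%, and those that fell were 28.4%, 24.3% and 22.8%. HNRNPA1 was lower in all 6 comparisons with an inhibitor, by -0.35 to -0.60. Of the 18, 4 were called only higher, 10 only lower, 2 in both directions and 2 in none of the 7 comparisons. A like count over all genes was not made, so these counts have no background to be read against. The 2 genes called in both directions were MATR3, which codes for the nuclear matrix protein matrin 3, and HNRNPR. MATR3 was at -0.56 and -0.39 with ABBV-744 alone and at 0.87 and 0.89 with IFNγ and ABBV-744, at 50 and 500 nM. HNRNPR was at -0.55 and -0.33 and at 0.69 and 0.62 in the same comparisons.

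**Figure D4:**
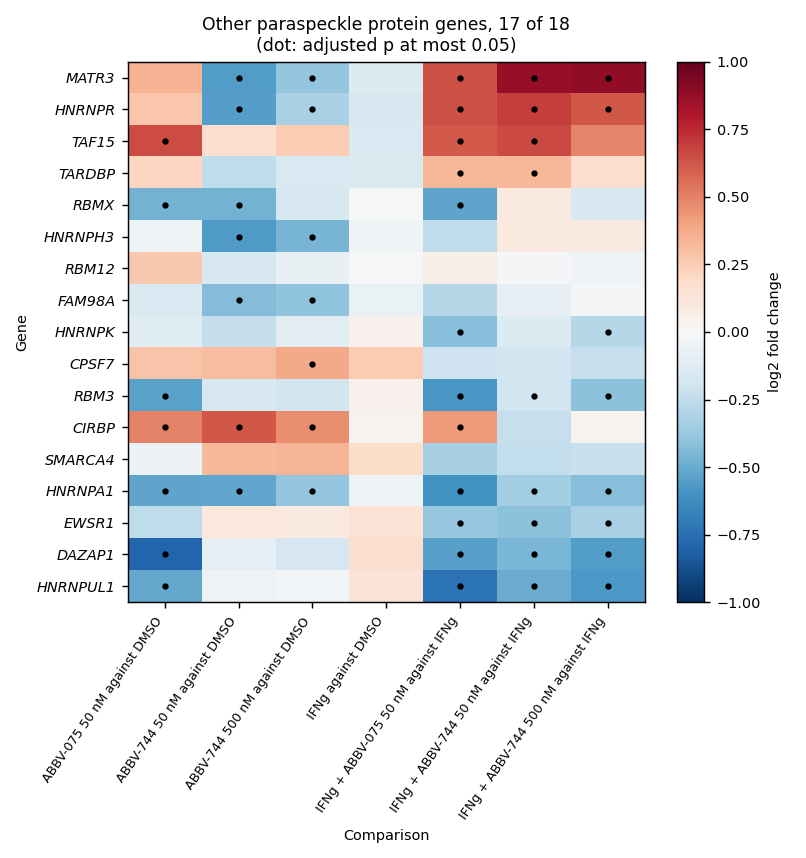
Log2 fold change (colour scale, red higher and blue lower) of 17 of the 18 genes for other paraspeckle proteins (rows) in the 7 treatment comparisons (columns); a dot marks an edgeR adjusted p of at most 0.05. The column of IFNγ against DMSO holds no dot, HNRNPA1 is marked lower in the 6 inhibitor columns, and MATR3 and HNRNPR are blue with ABBV-744 alone and red with IFNγ and ABBV-744.

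The choice between the short and the long NEAT1 transcript is made at a poly(A) site, which the CPSF6 and NUDT21 complex (CFIm) promotes and which HNRNPK and TARDBP also affect. CPSF6 was not called in any of the 7 comparisons, at -0.05 to 0.17. NUDT21 rose beside IFNγ by 0.44 with ABBV-075, 0.80 with ABBV-744 at 50 nM and 0.57 at 500 nM, and with the inhibitors alone it was at 0.21, -0.31 and -0.18. The difference between its effects with and without IFNγ was called for ABBV-744, at 1.08 and 0.77, and not for ABBV-075, at 0.21. Of all genes 51.6% and 33.5% were called in these interactions with ABBV-744 at 50 and 500 nM, and 0.0347% in that with ABBV-075. HNRNPK fell beside IFNγ with ABBV-075 (-0.42) and with ABBV-744 at 500 nM (-0.29), and TARDBP rose beside IFNγ with ABBV-075 (0.33) and with ABBV-744 at 50 nM (0.33). With each inhibitor alone none of the 4 was called. There 19.8%, 8.81% and 7.48% of all genes rose with ABBV-075 and with ABBV-744 at 50 and 500 nM, and 19.6%, 10.1% and 7.8% fell. Beside IFNγ, where the calls above were made, 28.2%, 27.4% and 22.9% of all genes rose, and 28.4%, 24.3% and 22.8% fell.

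Of 12 genes for RNase P subunits, for RNase Z, which cuts the other end of the tRNA-like RNA, and for METTL16, a methyltransferase that binds the MALAT1 triple helix, 10 were expressed enough to be tested, and none rose in the 7 comparisons. Among all genes the share that rose in these comparisons ran from 2.76% with IFNγ to 28.2% with IFNγ and ABBV-075. METTL16 fell with ABBV-075 by a log2 fold change of -1.45 and with ABBV-744 at 500 nM by -0.68. Beside IFNγ it fell with ABBV-075 (-1.16) and with ABBV-744 at 50 nM (-0.97) and 500 nM (-0.86). ELAC2, the gene for RNase Z, fell with the 3 inhibitor treatments beside IFNγ, by -0.57, -0.67 and -0.78. POP7 fell with ABBV-075 by -0.52 and with the 3 treatments beside IFNγ by -0.73, -0.56 and -0.56, and POP1 fell beside IFNγ with ABBV-075 (-0.43) and ABBV-744 at 500 nM (-0.39). Of these genes, 2 fell with ABBV-075, 0 with ABBV-744 at 50 nM, 1 at 500 nM and 0 with IFNγ, and 4, 3 and 4 with the inhibitors beside IFNγ. Among all genes 19.6%, 10.1%, 7.8% and 0.695% fell in the first 4 of these comparisons and 28.4%, 24.3% and 22.8% in the 3 beside IFNγ, so that 2 of 10 with ABBV-075 was near the share of all genes.

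Among 8 genes for nuclear speckle proteins, 4 rose with ABBV-075 and 4 rose with IFNγ and ABBV-075, and none fell in either. In these comparisons 19.8% and 28.2% of all genes rose, and 19.6% and 28.4% fell. SRRM2, which with SON forms the core of speckles, rose by 0.98 with ABBV-075, by 0.90 and 0.96 with ABBV-744 at 50 and 500 nM, and beside IFNγ by 0.51 with ABBV-075 and 0.33 with ABBV-744 at 500 nM. SON rose by 0.46 with ABBV-075, and the splicing factor gene SRSF3 by 0.40. With ABBV-744 alone 1 rose and 1 fell at 50 nM and 2 rose and 1 fell at 500 nM, SRSF1 being the one that fell (-0.39 and -0.28). At these doses 8.81% and 7.48% of all genes rose, and 10.1% and 7.8% fell. Beside IFNγ 3 rose and 0 fell at each dose of ABBV-744, where 27.4% and 22.9% of all genes rose and 24.3% and 22.8% fell. With IFNγ alone 0 of 8 were called, where 2.76% of all genes rose and 0.695% fell.

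The 25 other annotated symbols within 250 kb of the stretch from NEAT1 to MALAT1 included 17 with enough counts for a test. With ABBV-075 alone 3 of the 17 were higher and 2 lower, near or below the 19.8% and 19.6% of all genes, and their median was at -0.002 on the log2 scale. The higher genes were TIGD3 (1.01), which starts 68.0 kb before NEAT1, RNASEH2C (0.73), a subunit of RNase H2, and SIPA1 (0.64), and the lower ones were CAPN1 (-0.58), for the protease calpain 1, and KAT5 (-0.50), for an acetyltransferase. FRMD8, the tested gene whose start is nearest to that of NEAT1, was at -0.19 and was not called.

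With ABBV-744 alone 5 of the 17 neighbours were higher and 0 lower at both doses, with medians of 0.41 at 50 nM and 0.17 at 500 nM. At these doses 8.81% and 7.48% of all genes were higher, and 10.1% and 7.8% lower. With IFNγ and ABBV-744 0 were higher and 8 lower at 50 nM, and 0 higher and 3 lower at 500 nM, with medians of -0.32 and -0.14. There 27.4% and 22.9% of all genes were higher, and 24.3% and 22.8% lower. With IFNγ and ABBV-075 3 were higher and 3 lower, beside 28.2% and 28.4% of all genes. None was called with IFNγ alone, beside 2.76% of all genes higher and 0.695% lower. RELA, the NF-κB subunit gene 240 kb from NEAT1 by their starts, was at 0.51 with ABBV-744 at 50 nM and at -0.56 with IFNγ and that dose, both called. In the interaction of IFNγ with ABBV-744 at 50 nM 11 of the 17 were called lower, beside 26.5% of all genes, with a median of -0.56 beside -0.14 over all genes tested, while MALAT1 was at 1.18.

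**Figure D5:**
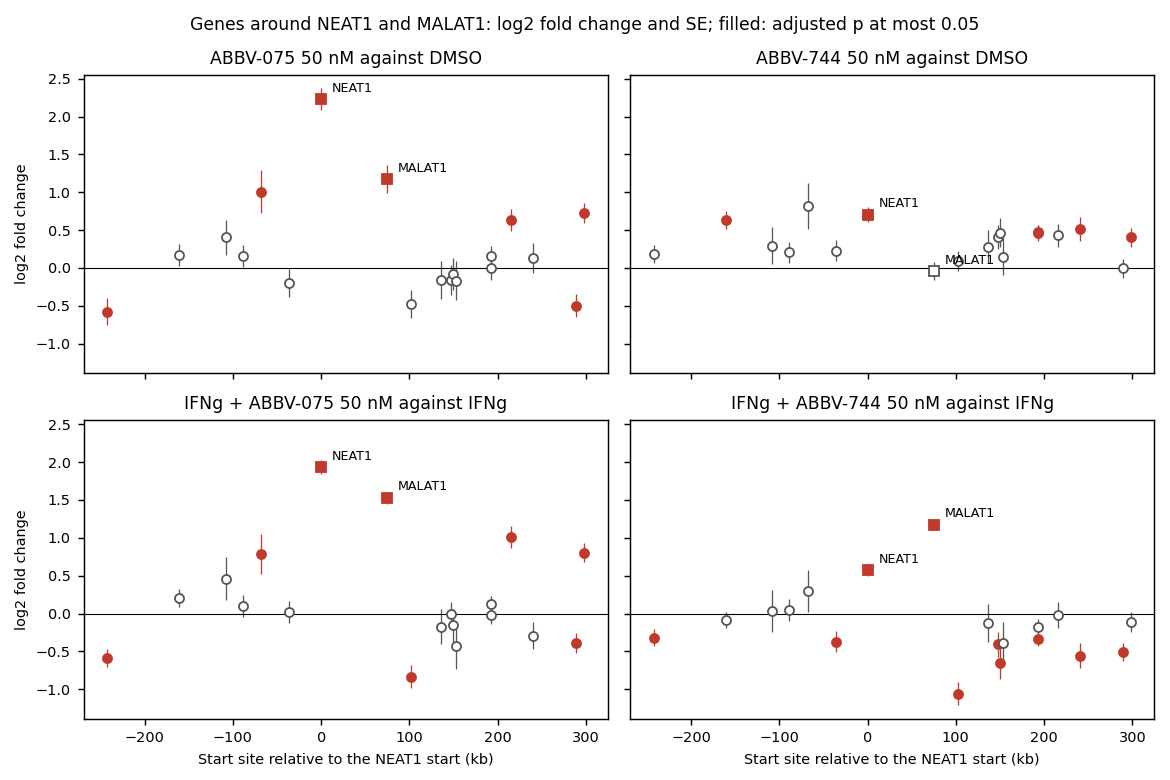
Log2 fold change with its SE (y axis) of NEAT1 and MALAT1 (squares) and 17 neighbouring genes (circles) against the distance of their start from the NEAT1 start in kb (x axis), in 4 comparisons; filled red points have an edgeR adjusted p of at most 0.05. NEAT1 is above its tested neighbours in both ABBV-075 panels, and with IFNγ and ABBV-744 at 50 nM NEAT1 and MALAT1 are the only genes called higher beside 8 neighbours called lower.

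RefSeq promoter windows (GRCh38.p14), from 250 bases before to 50 after a start, were at hand for MALAT1 (2 starts), RBM14, NONO and PSPC1. They were searched on both strands for 5 short motifs, and the share of 35116 such windows that hold each was counted. The letters of the TATA box (TATAAA) occur in 11.5% of windows, those of an E-box (CACGTG) in 7.26%, those of a STAT site (TTCNNNGAA) in 7.66%, those of a CCAAT box in 34.6% and those of a GC box (GGGCGG) in 45.0%. These motifs do not overlap each other in the windows shown. The second MALAT1 window and that of RBM14 are printed because these genes moved in opposite directions in the same groups, with matches in capitals. The MALAT1 window is chr11:65498795-65499094 and that of RBM14 is chr11:66616380-66616679, both on the plus strand.
MALAT1 promoter: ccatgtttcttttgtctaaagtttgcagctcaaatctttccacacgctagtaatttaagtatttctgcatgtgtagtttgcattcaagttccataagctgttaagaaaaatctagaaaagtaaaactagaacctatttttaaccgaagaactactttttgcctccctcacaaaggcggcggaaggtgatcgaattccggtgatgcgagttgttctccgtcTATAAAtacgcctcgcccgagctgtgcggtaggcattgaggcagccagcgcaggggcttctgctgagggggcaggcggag
RBM14 promoter: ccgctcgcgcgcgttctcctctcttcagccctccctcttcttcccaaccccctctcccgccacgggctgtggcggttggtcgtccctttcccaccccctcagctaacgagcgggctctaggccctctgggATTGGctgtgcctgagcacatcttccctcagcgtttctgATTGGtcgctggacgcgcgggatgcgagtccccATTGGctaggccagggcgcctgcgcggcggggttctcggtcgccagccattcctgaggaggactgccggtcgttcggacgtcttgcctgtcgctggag
The MALAT1 window held 1 TATAAA and no other of the 5 motifs, and 46.0% of its bases were G or C. The other MALAT1 window, chr11:65497488-65497787, held 5 GGGCGG and was 73.7% G and C. The RBM14 window held 3 CCAAT, all read on the minus strand as ATTGG, and NONO also held 3 CCAAT. The PSPC1 window held none of the 5.

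The 6 genes followed each other in part over the 8 group means of log2 CPM. Pearson's r was 0.80 between NEAT1 and MALAT1, -0.95 between MALAT1 and RBM14 and -0.65 between NEAT1 and RBM14, where the means share libraries, depth and treatments and no test was made. Among 7474 genes compared in this way, those most like NEAT1 included TXNIP (r = 0.99), the gene of a thioredoxin inhibitor, JHDM1D-AS1 (0.99), FAM220A (0.98) and FAM120AOS (0.98). Over the 24 libraries r with NEAT1 was 0.97 for TXNIP and 0.95 for FAM220A, but 0.70 for JHDM1D-AS1 (rank 499) and 0.88 for FAM120AOS (rank 51). TXNIP averaged 26.5 CPM in DMSO and 164 CPM with ABBV-075. The genes most like MALAT1 were SPTLC2, LRRFIP2, REL, AGTPBP1 and USP53, all with r of 1.00 or 0.99, and those most like RBM14 were PFN1, AGT, DCAF11, C20orf27 and EWSR1 with r of 0.99 or 1.00. EWSR1, an RNA-binding protein gene, is also on the paraspeckle list. For SFPQ, NONO and PSPC1 the highest r were 0.97 with CNN3, 0.93 with IGBP1 and 0.90 with PIEZO2.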

How the data were processed

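RNA of HepG2 cells was sequenced in 24 libraries, 8 groups of 3 by the treatment labels. The authors depleted ribosomal RNA, used Trimmomatic 0.33 to trim reads and STAR 2.7.1 for alignment to hg38 and deposited raw counts of reads per gene symbol, which leave out reads with several positions. Of 3 count columns, that of the gene's strand was used. Gene counts ranged from 2978982 to 4304103 per library (median 3462418.5), and reads with several positions, unmapped, ambiguous or outside genes stayed out of library sizes.

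In R 4.3.3, edgeR 4.0.16 was run on the groups compared, with filterByExpr, TMM, glmQLFit and glmQLFTest, no covariate, and Benjamini-Hochberg adjustment over all genes tested. SE is the log2 fold change divided by the square root of F. Log2 CPM used a prior count of 2. The 14 comparisons share control libraries. The fit was tested on simulated data. Symbols were paired with GENCODE v44, 23161 by name and 1347 by RefSeq synonym, and 1967 stayed unmatched. Named genes are the 6 members, fixed lists, neighbours within 250 kb, and for each member the 5 genes with the highest correlation of group means (mean log2 CPM at least 4). The members and lists were chosen with earlier results of these data known. Alternatives were DESeq2 1.42.0, RLE, library size alone, 2 filters, all 24 libraries, both strands, the 10 genes with the most counts removed, a GC correction (lowess, span 0.3), the replicate block and each library left out. Plots used matplotlib 3.10.9. A few named genes that the rule includes are not reported here, and counts over the lists include them.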

Additional observations from a re-analysis of the deposited data

Results flagged for a closer look

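The effect of ABBV-744 on MALAT1, NONO and RBM14 differed between cells with and without IFNγ by a test of the difference itself (edgeR interaction, 3 libraries in each of 4 groups). For MALAT1 the effect with IFNγ was larger by 1.18 at 50 nM and by 1.00 at 500 nM on the log2 scale (edgeR adjusted p = 4.42e-07 and 5.44e-07). For RBM14 it was lower by a difference of -1.27 and -1.01 (edgeR adjusted p = 1.09e-07 and 2.29e-05), and for NONO by -0.45 and -0.52 (edgeR adjusted p = 0.00735 and 0.00727). With the GC correction the values at 50 nM were 0.69 for MALAT1 and -0.82 for RBM14, both called, and -0.32 for NONO, which was not called there (edgeR adjusted p = 0.0580) or with library size alone (edgeR adjusted p = 0.116). SFPQ was not called in the fit reported (0.28 and 0.15), but was called with the GC correction at both doses (0.54 and 0.39). At 50 nM it was also called with library size alone (0.47). In the interaction tests of the fit reported 51.6% and 33.5% of all genes were called, and the median over all genes was -0.14 and -0.09. HEXIM1, the gene that marks BET inhibition, averaged 53.8 CPM in DMSO, 64.8 with ABBV-744 at 50 nM and 89.4 at 500 nM, and 47.0 CPM with IFNγ, 49.5 with IFNγ and 50 nM and 71.5 with IFNγ and 500 nM. It was called at 500 nM, alone (0.74) and beside IFNγ (0.58), and not at 50 nM (0.29 and 0.09), and its interactions, -0.22 and -0.14, were not called. HEXIM1 was 1 of 2 genes listed as a check of BET inhibition, and the other had different calls at 50 nM. With ABBV-075 alone the other gene was called lower (-0.73), where HEXIM1 was called higher. That gene was not called with ABBV-744 at 50 nM alone (-0.191), but was called lower beside IFNγ (-0.635) and in the interaction (-0.473). Its interaction at 500 nM (-0.271) was not called. The part of these 2 genes in the result was not tested.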

How the results depend on the processing

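Of 1536 alternative values of the 14 comparisons over the 6 genes, 1436 kept their sign and their side of the threshold, 36 changed sign, 39 became a call and 25 lost one. The rises of NEAT1 with all inhibitor treatments and those of MALAT1 with ABBV-075 and with the inhibitors beside IFNγ were called under every alternative run, as were the interactions of MALAT1 and RBM14 with ABBV-744. Where a value changed, the cause was not tested. With the GC correction MALAT1 turned to 0.141 with ABBV-744 at 50 nM and was called at 500 nM (0.339), NONO turned to 0.016 with IFNγ and ABBV-075, PSPC1 to -0.005 between the ABBV-744 doses, and the NEAT1 interaction with ABBV-744 at 50 nM was called (-0.390). With library size alone NONO turned to -0.025 with ABBV-744 at 50 nM, PSPC1 to -0.027 and RBM14 to -0.004 between the inhibitors beside IFNγ, and the interactions with ABBV-744 at 50 nM to 0.028 for NEAT1 and 0.073 for PSPC1, and the dose difference of NEAT1 with IFNγ was not called (0.214). That scaling moved the median of all genes from -0.144 to 0.043 in this interaction, from 0.001 to -0.103 with ABBV-744 at 50 nM and from 0.006 to -0.116 between the inhibitors beside IFNγ. It moved the percent of calls that were higher from 46.6 to 25.4 and from 48.9 to 30.8 with ABBV-744 at 50 and 500 nM, from 79.9 to 55.1 with IFNγ, from 49.6 to 29.1 between the inhibitors and from 82.9 to 45.2 between the doses beside IFNγ, and from 48.5 to 66.1 and from 55.3 to 67.7 in the 2 interactions with ABBV-744. In the fit of all 24 libraries MALAT1 lost its call with IFNγ (-0.251), MALAT1 between the inhibitors (0.383) and NEAT1 between the doses (0.268) lost theirs beside IFNγ, and SFPQ turned to -0.012 with IFNγ and ABBV-744 at 50 nM, as it did without the 10 genes with the most counts (-0.010). With no filter MALAT1 was called with ABBV-744 at 500 nM (0.230). The deviations of same-numbered libraries had r of -0.181 to 0.336, in no comparison above 0.1 in all 3 pairs, and of 0.058 to 0.333 between the ABBV-744 doses without IFNγ, so the numbers were not taken to pair the libraries. With the replicate block NEAT1 (0.281), MALAT1 (0.294) and NONO (0.290) were called between the ABBV-744 doses without IFNγ, where 320 genes were called instead of 3. It also gave a call for NONO between the inhibitors beside IFNγ (0.246) and ended that of SFPQ between them without IFNγ (0.416). With the block and the GC correction MALAT1 was at 0.123 with ABBV-744 at 50 nM, 0.333 at 500 nM, -0.188 with IFNγ (not called) and 0.207 between the doses, NONO at 0.020 with IFNγ and ABBV-075, PSPC1 at -0.004 between the doses and the NEAT1 interaction at -0.393. The number of genes called, for every comparison in which it moved by over 1.5 times apart from single libraries left out, ran from 888 to 2362 with ABBV-744 at 50 nM (2102 in the fit reported), from 986 to 1989 at 500 nM (1700), from 3811 to 5867 with IFNγ and ABBV-744 at 50 nM (5766), from 3 to 320 between the doses (3) and from 2 to 267 with IFNγ (187), and in the interactions from 4 to 45 with ABBV-075 (4), from 2313 to 5912 with ABBV-744 at 50 nM (5905) and from 1825 to 3864 at 500 nM (3827). When each library was left out in turn, the log2 differences of these results ran over the following ranges. MALAT1 ran from -0.230 to 0.146 with ABBV-744 at 50 nM, from 0.086 to 0.344 at 500 nM and from -0.288 to -0.214 with IFNγ, and NEAT1 from 0.251 to 0.353 between the doses with IFNγ. PSPC1 ran from -0.091 to 0.315 with ABBV-744 at 50 nM and, beside IFNγ, from -0.154 to 0.236 with ABBV-075 and from -0.094 to 0.134 with ABBV-744 at 50 nM. It ran from -0.135 to 0.245 between the inhibitors with IFNγ, from -0.086 to 0.257 between the doses, and from -0.286 to 0.119 and -0.089 to 0.265 in the interactions with ABBV-744. SFPQ ran from -0.070 to 0.057 with IFNγ and ABBV-744 at 50 nM and from -0.017 to 0.108 in the ABBV-075 interaction, NONO from -0.022 to 0.102 between the inhibitors and RBM14 from -0.076 to 0.067 between the doses. Of the 5 genes most like each member, 3 stayed for NEAT1, 2 for SFPQ and for RBM14 and 0 for MALAT1, NONO and PSPC1 when r was taken over 24 libraries. The depth of 52 to 113 counts limits PSPC1.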
